A study of Mus musculus with 3 samples.

Results

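The 5 genes Spp1, Gpnmb, Trem2, Fn1 and Cd9 were described across the cell classes and libraries of a single-cell RNA-seq study of mouse lung macrophages in acute lung injury. They were chosen by symbol, as genes whose joint expression is used to mark repair or scar-associated macrophages, and make up 5 of the 55357 features measured. All mice were wild-type C57BL/6 animals kept specific-pathogen free, and every group received 50 µL into the trachea 24 h before the lungs were taken. The first group received LPS at 4 mg/kg together with 6 µg of Reg3g, an antimicrobial lectin, the second received LPS at 4 mg/kg alone, and the control group received PBS. Viable cells that were CD45+, Ly6G-, F4/80+ and positive for CD11b or CD11c were sorted. Each group is 1 library of cells pooled from 3 mice, so differences between mice cannot be seen and nothing below rests on replicates.

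Spp1 encodes osteopontin, a secreted phosphoprotein that binds integrins and CD44. Fn1 encodes fibronectin, a matrix protein that binds some of the same integrins. Trem2 is a cell-surface receptor for lipids and lipoproteins that signals through the adaptor Tyrobp, Gpnmb is a transmembrane glycoprotein of lysosomes and the cell surface, and Cd9 is a tetraspanin that organises proteins in the plasma membrane. In fibrotic lung and liver, macrophages that carry these transcripts together are described as scar-associated or lipid-associated macrophages, which arise largely from recruited monocytes. Alveolar macrophages are the resident phagocytes of the airspace, interstitial macrophages lie in the tissue, and monocytes enter the lung from blood after injury.

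In the GRCm38 build with GENCODE M21 genes, Spp1 lies at chr5:104435118-104441050 on the plus strand, Gpnmb at chr6:49036546-49070929 on the plus strand and Trem2 at chr17:48346401-48354147 on the plus strand. Fn1 lies at chr1:71585520-71653200 and Cd9 at chr6:125460266-125494791, both on the minus strand. Gpnmb and Cd9 share a chromosome, and the other genes each lie on one of their own. The 250 bases before the RefSeq start (GRCm38.p6), read on each gene's own strand, are shown for the 4 genes with an entry, because Gpnmb differed in the opposite direction from Spp1, Trem2 and Cd9 in alveolar-macrophage-like cells after LPS. The windows are chr5:104434861-104435110 (plus strand) for Spp1, whose upstream one of 2 entries is shown, chr6:49036268-49036517 (plus strand) for Gpnmb, chr17:48346151-48346400 (plus strand) for Trem2 and chr6:125494761-125495010 (minus strand) for Cd9. Capitals mark the matches to 5 motifs searched on both strands, none of which overlap.
Spp1: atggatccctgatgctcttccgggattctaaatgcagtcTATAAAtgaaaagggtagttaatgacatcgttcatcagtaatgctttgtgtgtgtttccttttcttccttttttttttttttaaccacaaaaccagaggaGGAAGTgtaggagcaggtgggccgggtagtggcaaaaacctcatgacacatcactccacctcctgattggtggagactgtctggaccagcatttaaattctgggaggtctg
Gpnmb: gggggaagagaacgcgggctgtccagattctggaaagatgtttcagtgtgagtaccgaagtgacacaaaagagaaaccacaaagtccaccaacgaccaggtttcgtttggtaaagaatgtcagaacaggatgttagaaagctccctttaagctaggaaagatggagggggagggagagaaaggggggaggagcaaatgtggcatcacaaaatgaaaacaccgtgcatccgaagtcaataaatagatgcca
Trem2: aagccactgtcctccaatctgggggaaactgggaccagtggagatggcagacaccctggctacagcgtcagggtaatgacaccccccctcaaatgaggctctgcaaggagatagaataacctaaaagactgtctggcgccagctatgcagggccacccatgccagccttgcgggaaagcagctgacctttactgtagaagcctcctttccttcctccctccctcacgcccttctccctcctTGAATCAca
Cd9: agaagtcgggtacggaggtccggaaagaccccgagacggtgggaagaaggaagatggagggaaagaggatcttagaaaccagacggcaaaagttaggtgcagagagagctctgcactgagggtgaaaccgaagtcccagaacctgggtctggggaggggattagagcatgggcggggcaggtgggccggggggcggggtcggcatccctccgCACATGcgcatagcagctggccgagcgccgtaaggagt
The Spp1 window held the TATA box letters TATAAA, beginning 211 bases before the start, and the ETS core GGAAGT, beginning 111 bases before it. Of all 32851 promoters in the table, 12.4% held TATAAA and 19.7% held GGAAGT. The Trem2 window held the AP-1 letters TGANTCA, beginning 9 bases before the start, which 6.75% of promoters held. The Cd9 window held the M-box CATGTG on the opposite strand, beginning 38 bases before the start, which 12.3% of promoters held. The Gpnmb window held none of the 5 motifs, and the E-box CACGTG (6.02% of promoters) was in none of the 4 windows.

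The libraries held 10213 barcodes with LPS and Reg3g, 15015 barcodes with LPS and 8475 barcodes with PBS, and 60942042 unique molecular identifiers with LPS and Reg3g, 70474636 unique molecular identifiers with LPS and 52354207 unique molecular identifiers with PBS (UMIs, counted transcripts). After filtering, 9279 cells with LPS and Reg3g, 13013 cells with LPS and 7861 cells with PBS were left, and the median cell had 5453 UMIs with LPS and Reg3g, 4217 UMIs with LPS and 5927 UMIs with PBS. Each pair of libraries shared between 28 and 37 barcodes. The files used here carry no cell types, so cells were clustered without the 5 genes and the clusters were named from marker lists. There were 3969 alveolar-macrophage-like cells with LPS and Reg3g, 4860 alveolar-macrophage-like cells with LPS and 3606 alveolar-macrophage-like cells with PBS. There were 4183 monocyte-like cells with LPS and Reg3g, 6018 monocyte-like cells with LPS and 2269 monocyte-like cells with PBS, and 127 cells with LPS and Reg3g, 160 cells with LPS and 475 cells with PBS of the interstitial-macrophage-like class. All 16 alveolar macrophage markers were detected in the alveolar-macrophage-like class in each library, and summed to 17215 CPM with LPS and Reg3g, 17370 CPM with LPS and 21809 CPM with PBS, where CPM is UMIs of a gene per 1000000 UMIs of the class. Of these 16 markers, 7 were lower and 3 higher with LPS than with PBS, by 2-fold or more each. None passed 2-fold between LPS with Reg3g and LPS. Different clusters made up a class in different libraries. Cluster 2 held 93.9% of the PBS alveolar-macrophage-like cells and clusters 16, 18 and 19 held most after LPS, with or without Reg3g. Clusters 5 and 3 held 71.0% and 28.0% of the PBS monocyte-like cells, and clusters 7, 9, 11 and 17 held most after LPS. Intervals are exact 95% intervals and cover counting error only. Each log2 ratio sets LPS with Reg3g against LPS, or LPS against PBS, and both comparisons use the same LPS library.

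In alveolar-macrophage-like cells, LPS went with less Spp1, Trem2, Fn1 and Cd9 and with more Gpnmb. Of the 5 genes, 4 were lower by 2-fold or more with LPS than with PBS and 1 was higher by 2-fold or more. Among all 7840 genes reaching 10 CPM in either library, 14.4% were lower and 5.82% higher by that much. The median log2 ratio over these genes was -0.26. Scaling by the median of ratios moved that median by 0.32, and the 5 ratios became -3.82 for Spp1, -1.24 for Fn1, -1.33 for Trem2, 1.78 for Gpnmb and -1.17 for Cd9, again with 4 genes lower and 1 higher by 2-fold. With Reg3g given beside LPS, none of the 5 differed 2-fold or more from LPS alone in this class. Of 7149 genes, 0.0280% were higher and 0.0839% lower by 2-fold in that comparison, whose median log2 ratio was 0.04. Of these genes, 99.9% had a ratio at or below that of Spp1 and 92.0% one at or below that of Cd9. The shares were 73.2% for Fn1, 31.1% for Trem2 and 6.62% for Gpnmb.

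**Figure D1:**
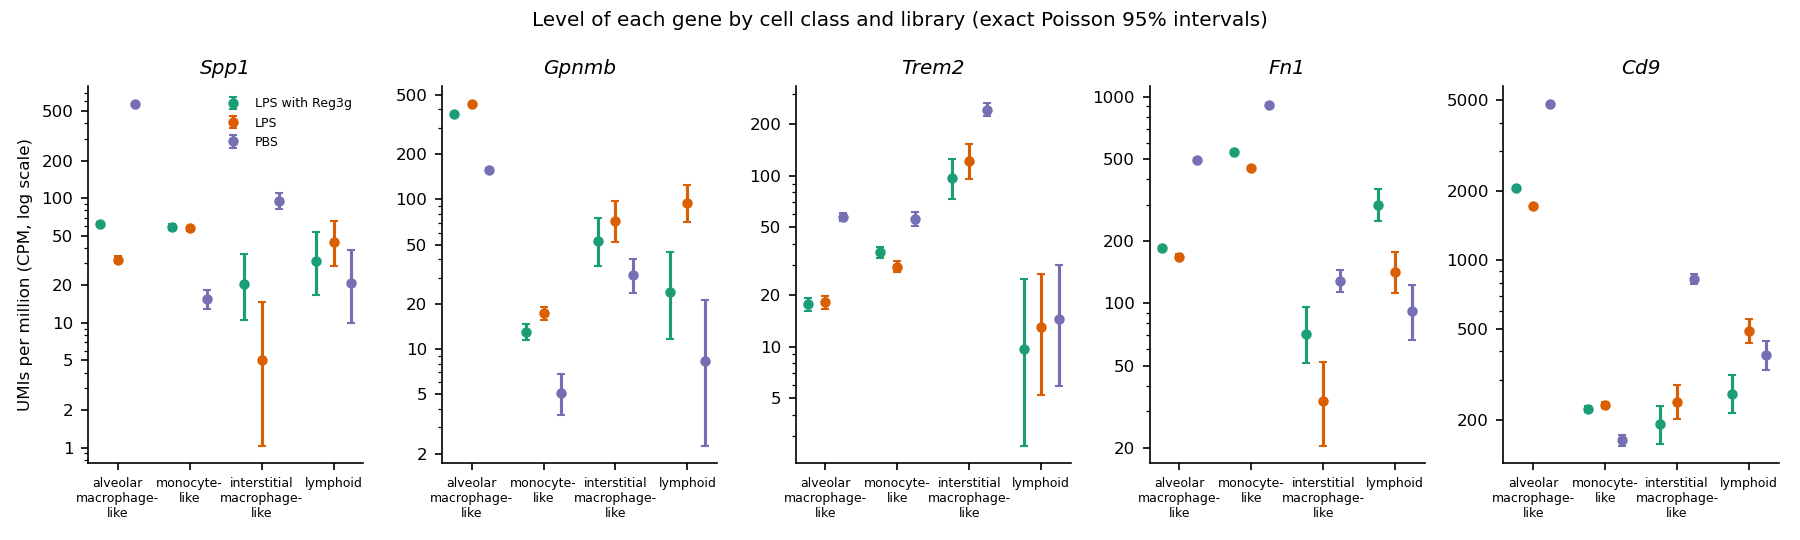
Level of each gene in UMIs per 1000000 (CPM, log scale, one panel per gene with its own range) in 3 myeloid classes and in lymphoid cells, for the libraries LPS with Reg3g, LPS and PBS. Points are levels summed over the class and bars exact Poisson 95% intervals. PBS is highest for Spp1, Trem2, Fn1 and Cd9 in alveolar-macrophage-like cells and lowest for Gpnmb.

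Spp1, the secreted ligand, had 62.2 CPM with LPS and Reg3g, 32.2 CPM with LPS and 570.5 CPM with PBS in alveolar-macrophage-like cells, from 1910 UMIs with LPS and Reg3g, 970 UMIs with LPS and 16205 UMIs with PBS. The PBS level stood far above the others, and the intervals of LPS with Reg3g (59.5 to 65.1 CPM) and LPS (30.2 to 34.3 CPM) did not meet. The log2 ratio was 0.95 (0.84 to 1.06) for LPS with Reg3g against LPS, and -4.15 (-4.24 to -4.05) for LPS against PBS, a level 17.7-fold lower. Most Spp1 transcripts of the PBS library came from this class, and fewer than 50% of those of the LPS library did. Of all Spp1 UMIs, alveolar-macrophage-like cells held 56.1% with LPS and Reg3g, 38.2% with LPS and 94.0% with PBS. Of the cells kept, they were 42.8% with LPS and Reg3g, 37.3% with LPS and 45.9% with PBS.

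In monocyte-like cells the Spp1 ratio for LPS against PBS had the opposite sign. The gene had 58.6 CPM with LPS and Reg3g, 57.2 CPM with LPS and 15.5 CPM with PBS, with log2 ratios of 0.04 (-0.08 to 0.15) for LPS with Reg3g against LPS and 1.88 (1.62 to 2.15) for LPS against PBS. Of its 1301 UMIs in this class with LPS, 873 lay in cluster 17, which held 0 PBS cells. With LPS, Spp1 had 137 CPM in cluster 17, 81.4 CPM in cluster 11, 18.2 CPM in cluster 9 and 5.86 CPM in cluster 7. In interstitial-macrophage-like cells it rested on 12 UMIs with LPS and Reg3g, 3 UMIs with LPS and 193 UMIs with PBS, or 20.4 CPM with LPS and Reg3g, 5.03 CPM with LPS and 95.1 CPM with PBS. The log2 ratio there was 2.02 (0.13 to 4.48) for LPS with Reg3g against LPS and -4.24 (-6.53 to -2.67) for LPS against PBS. Lymphoid cells (T-, NK- and B-cell-like), which stand here for free RNA, had 31.5 CPM (16.8 to 53.8) with LPS and Reg3g, 44.5 CPM (28.5 to 66.1) with LPS and 20.8 CPM (9.97 to 38.2) with PBS. The levels of alveolar-macrophage-like and monocyte-like cells lay within the lymphoid interval with LPS and above it with LPS and Reg3g. With PBS the alveolar-macrophage-like level lay above that interval and the monocyte-like level within it. In the order of classes, alveolar-macrophage-like cells stood first with PBS, followed by interstitial-macrophage-like and type 1 dendritic-cell-like cells (93.8 CPM), whose intervals overlapped. Neutrophil-like cells stood first in the other libraries, at 100 CPM with LPS and Reg3g and 75.6 CPM with LPS, with intervals that overlapped the next class.

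Fn1, the matrix ligand, was highest in monocyte-like cells in every library, and the interval of the next class did not reach it. The next class was T-or-NK-like (311 CPM) with LPS and Reg3g, neutrophil-like (220 CPM) with LPS and type 2 dendritic-cell-like (623 CPM) with PBS. Monocyte-like cells had 542 CPM with LPS and Reg3g, 454 CPM with LPS and 912 CPM with PBS, with log2 ratios of 0.26 (0.22 to 0.29) for LPS with Reg3g against LPS and -1.01 (-1.05 to -0.96) for LPS against PBS. In alveolar-macrophage-like cells it had 185 CPM with LPS and Reg3g, 168 CPM with LPS and 497 CPM with PBS, with log2 ratios of 0.14 (0.08 to 0.19) for LPS with Reg3g against LPS and -1.56 (-1.61 to -1.51) for LPS against PBS. The PBS library was the highest in both classes. Interstitial-macrophage-like cells had less, at 71.4 CPM with LPS and Reg3g, 33.5 CPM with LPS and 129 CPM with PBS. For Fn1, lymphoid cells had 300 CPM with LPS and Reg3g, 143 CPM with LPS and 91.5 CPM with PBS. The alveolar-macrophage-like level was thus below the lymphoid one with LPS and Reg3g, and above it with PBS.

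Trem2, the lipid receptor, was highest in interstitial-macrophage-like cells in all 3 libraries, at 96.9 CPM (73.4 to 126) with LPS and Reg3g, 122 CPM (96.0 to 154) with LPS and 243 CPM (222 to 266) with PBS. The next class in order lay outside these intervals each time. In alveolar-macrophage-like cells Trem2 had 17.7 CPM with LPS and Reg3g, 18.2 CPM with LPS and 57.4 CPM with PBS, with overlapping intervals for LPS with Reg3g and LPS. Monocyte-like cells had 35.6 CPM with LPS and Reg3g, 29.4 CPM with LPS and 56.0 CPM with PBS, and with PBS their interval overlapped that of alveolar-macrophage-like cells. The PBS library was the highest in all 3 myeloid classes. For LPS with Reg3g against LPS the log2 ratios were -0.04 (-0.21 to 0.13) in alveolar-macrophage-like, 0.28 (0.12 to 0.43) in monocyte-like and -0.34 (-0.86 to 0.18) in interstitial-macrophage-like cells. For LPS against PBS they were -1.66 (-1.80 to -1.52), -0.93 (-1.10 to -0.76) and -0.99 (-1.37 to -0.63) in these classes. With PBS, interstitial-macrophage-like cells held 18.4% of the Trem2 UMIs and were 6.04% of the cells.

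Gpnmb, the lysosomal glycoprotein, was highest in alveolar-macrophage-like cells in all 3 libraries and was the one gene of the set with its lowest level in PBS there. It had 374 CPM with LPS and Reg3g, 433 CPM with LPS and 158 CPM with PBS, from 11472 UMIs with LPS and Reg3g, 13042 UMIs with LPS and 4483 UMIs with PBS. The log2 ratio was -0.21 (-0.25 to -0.18) for LPS with Reg3g against LPS and 1.46 (1.41 to 1.51) for LPS against PBS. The next class was neutrophil-like (111 CPM) with LPS and Reg3g, T-or-NK-like (111 CPM) with LPS and interstitial-macrophage-like with PBS. Of all Gpnmb UMIs, alveolar-macrophage-like cells held 88.6% with LPS and Reg3g, 89.2% with LPS and 95.9% with PBS. Monocyte-like cells had 13.1 CPM with LPS and Reg3g, 17.4 CPM with LPS and 5.05 CPM with PBS, and interstitial-macrophage-like cells had 52.7 CPM with LPS and Reg3g, 72.1 CPM with LPS and 31.0 CPM with PBS. The order of the libraries was the same in the 3 classes, and the log2 ratio for LPS against PBS was 1.79 (1.33 to 2.28) in monocyte-like and 1.22 (0.62 to 1.80) in interstitial-macrophage-like cells. Lymphoid cells showed this order too, at 24.2 CPM with LPS and Reg3g, 94.5 CPM with LPS and 8.32 CPM with PBS, a log2 ratio of 3.51 (2.06 to 5.44) for LPS against PBS. The monocyte-like levels were below the lymphoid ones in every library.

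Cd9, the tetraspanin, was also highest in alveolar-macrophage-like cells in every library, with 2080 CPM with LPS and Reg3g, 1723 CPM with LPS and 4838 CPM with PBS. The next class was neutrophil-like with LPS and Reg3g (1072 CPM) and with LPS (788 CPM), and structural with PBS (930 CPM). Its log2 ratio was 0.27 (0.25 to 0.29) for LPS with Reg3g against LPS and -1.49 (-1.50 to -1.48) for LPS against PBS. In interstitial-macrophage-like cells the level was 192 CPM with LPS and Reg3g, 242 CPM with LPS and 829 CPM with PBS, again highest with PBS. Cd9 differed less in monocyte-like cells, at 224 CPM with LPS and Reg3g, 234 CPM with LPS and 164 CPM with PBS, with log2 ratios of -0.06 (-0.12 to -0.004) for LPS with Reg3g against LPS and 0.51 (0.43 to 0.60) for LPS against PBS. Lymphoid cells had 261 CPM with LPS and Reg3g, 493 CPM with LPS and 385 CPM with PBS, above the monocyte-like level in every library.

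Counted over the monocyte-like class, 2 of the 5 genes (Spp1 and Gpnmb) were higher by 2-fold or more with LPS than with PBS and 1 (Fn1, just past the threshold) was lower, where 11.0% and 8.51% of 7662 genes were. None differed 2-fold between LPS with Reg3g and LPS, where 0.0949% of 7380 genes were higher and 0.0542% lower. The all-gene median log2 ratios were 0.04 for LPS with Reg3g against LPS and 0.03 for LPS against PBS. In interstitial-macrophage-like cells, 3 of the 5 (Spp1, Fn1 and Cd9) were lower and 1 (Gpnmb) higher by 2-fold with LPS than with PBS, where 15.9% and 10.4% of 8350 genes were. For LPS with Reg3g against LPS, Spp1 and Fn1 were higher there by 2-fold or more and none was lower, where 7.24% and 6.90% of 8082 genes were. Neutrophil markers moved with this, summing to 1252 CPM with LPS and Reg3g, 409 CPM with LPS and 115 CPM with PBS in the class, and the Fn1 level of neutrophil-like cells was 170 CPM with LPS and Reg3g and 220 CPM with LPS. Lymphoid cells, which stand here for free RNA, had more of both genes than this class in these libraries. Fn1 there had 300 CPM with LPS and Reg3g and 143 CPM with LPS, and Spp1 had 31.5 and 44.5 CPM. For LPS with Reg3g against LPS, the lymphoid log2 ratio of Fn1 was 1.07, beside 1.09 in interstitial-macrophage-like cells. That of Spp1 was -0.499, beside 2.02 in that class. The part of neutrophils or of free RNA in these ratios was not tested.

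**Figure D2:**
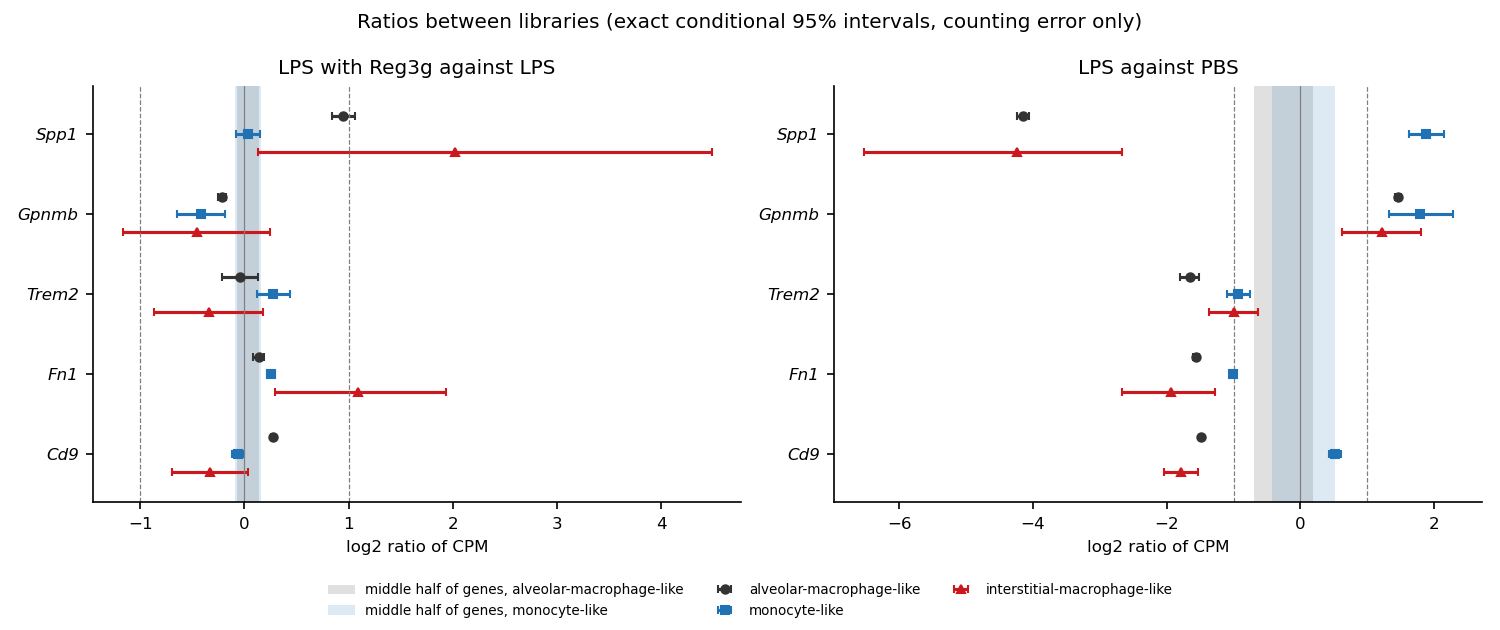
Log2 ratios of the 5 genes for LPS with Reg3g against LPS and for LPS against PBS in alveolar-macrophage-like, monocyte-like and interstitial-macrophage-like cells, with exact conditional binomial 95% intervals. Dashed lines mark 2-fold and bands run from the lower to the upper quartile of all genes in the alveolar-macrophage-like and monocyte-like classes. For LPS against PBS, Spp1 is at -4.15 in alveolar-macrophage-like and 1.88 in monocyte-like cells, and Gpnmb is above 0 in all 3 classes.

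Markers of other cells were also summed in these classes, and some of the sums differed between libraries. In alveolar-macrophage-like cells, the classical monocyte markers summed to 286 CPM with LPS and Reg3g, 358 CPM with LPS and 46.2 CPM with PBS, and the neutrophil markers to 158 CPM with LPS and Reg3g, 147 CPM with LPS and 60.0 CPM with PBS. In monocyte-like cells, the alveolar macrophage markers summed to 1538 CPM with LPS and Reg3g, 1624 CPM with LPS and 1482 CPM with PBS, and the neutrophil markers to 1145 CPM with LPS and Reg3g, 687 CPM with LPS and 195 CPM with PBS. In lymphoid cells, the median alveolar macrophage marker stood at 8.02% with LPS and Reg3g, 25.6% with LPS and 6.07% with PBS of its level in alveolar-macrophage-like cells, highest with LPS alone. The part of other cells or of free RNA in the ratios was not tested.

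At equal depth, with each cell thinned to 2000 UMIs, a Spp1 UMI was seen in 7.74% with LPS and Reg3g, 4.53% with LPS and 47.4% with PBS in the alveolar-macrophage-like class. Without thinning the shares were 16.1% with LPS and Reg3g, 9.09% with LPS and 75.0% with PBS, at median depths of 7571 UMIs with LPS and Reg3g, 6083.5 UMIs with LPS and 7642.5 UMIs with PBS. Lymphoid cells, thinned alike, had a Spp1 UMI in 3.12% (0.38 to 10.8) with LPS and Reg3g, 4.82% (1.33 to 11.9) with LPS and 3.30% (0.69 to 9.33) with PBS, from median depths of 2261.5 UMIs with LPS and Reg3g, 1829 UMIs with LPS and 2163.5 UMIs with PBS. The share with LPS alone was below the lymphoid one, and that with LPS and Reg3g lay within the lymphoid interval. Within the class, cluster 2 had 20.2% and cluster 12 had 14.9% of thinned cells with a Spp1 UMI in the LPS library, above its lymphoid interval.

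Gpnmb was seen in 47.7% with LPS and Reg3g, 52.0% with LPS and 22.8% with PBS of thinned alveolar-macrophage-like cells, and unthinned in 78.6% with LPS and Reg3g, 79.1% with LPS and 49.6% with PBS, clear of the lymphoid shares of 3.12% with LPS and Reg3g, 8.43% with LPS and 1.10% with PBS. Trem2 was seen in 3.93% with LPS and Reg3g, 3.56% with LPS and 10.3% with PBS, and unthinned in 11.7% with LPS and Reg3g, 9.63% with LPS and 30.3% with PBS, beside 3.12% with LPS and Reg3g, 6.02% with LPS and 3.30% with PBS in lymphoid cells. The PBS share of Trem2 alone was above the lymphoid interval of its library. Fn1 was seen in 25.1% with LPS and Reg3g, 24.2% with LPS and 51.8% with PBS, and unthinned in 50.5% with LPS and Reg3g, 45.1% with LPS and 79.0% with PBS, beside 26.6% with LPS and Reg3g, 21.7% with LPS and 9.89% with PBS in lymphoid cells, and again the PBS share alone was well above. Cd9 was seen in 95.2% with LPS and Reg3g, 93.2% with LPS and 99.9% with PBS, beside 34.4% with LPS and Reg3g, 36.1% with LPS and 26.4% with PBS in lymphoid cells. Thinning left out 79 cells with LPS and Reg3g, 203 cells with LPS and 46 cells with PBS of this class.

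In monocyte-like cells thinned to the same depth, Fn1 was seen in 44.0% with LPS and Reg3g, 41.1% with LPS and 56.9% with PBS, and unthinned in 53.5% with LPS and Reg3g, 48.8% with LPS and 56.2% with PBS, above the lymphoid shares. Spp1 was seen in 5.35% with LPS and Reg3g, 4.35% with LPS and 1.91% with PBS and Gpnmb in 1.89% with LPS and Reg3g, 2.63% with LPS and 0.71% with PBS, and unthinned in 8.20% with LPS and Reg3g, 6.10% with LPS and 3.39% with PBS for Spp1. Trem2 was seen in 6.45% with LPS and Reg3g, 5.54% with LPS and 8.55% with PBS, and unthinned in 12.6% with LPS and Reg3g, 8.82% with LPS and 15.2% with PBS. The thinned shares of these 3 genes were below the lymphoid ones or within their intervals. Thinning leaves out the shallowest cells, so the thinned class can differ in make-up from the whole class. Cluster 3, which held 28.0% of the PBS monocyte-like cells and was low in Fn1, had a median cell at 0.35 of its library's median depth. In interstitial-macrophage-like cells Trem2 was seen in 18.0% with LPS and Reg3g, 21.7% with LPS and 31.8% with PBS, and unthinned in 28.3% with LPS and Reg3g, 28.7% with LPS and 49.5% with PBS, clear of the lymphoid shares in each library. Thinning left out 631 monocyte-like cells with LPS and Reg3g, 1379 monocyte-like cells with LPS and 433 monocyte-like cells with PBS and 16 interstitial-macrophage-like ones with LPS and Reg3g, 40 interstitial-macrophage-like ones with LPS and 69 interstitial-macrophage-like ones with PBS, classes with median depths of 4024 UMIs with LPS and Reg3g, 3213.5 UMIs with LPS and 3460 UMIs with PBS and of 4118 UMIs with LPS and Reg3g, 3124.5 UMIs with LPS and 3481 UMIs with PBS.

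**Figure D3:**
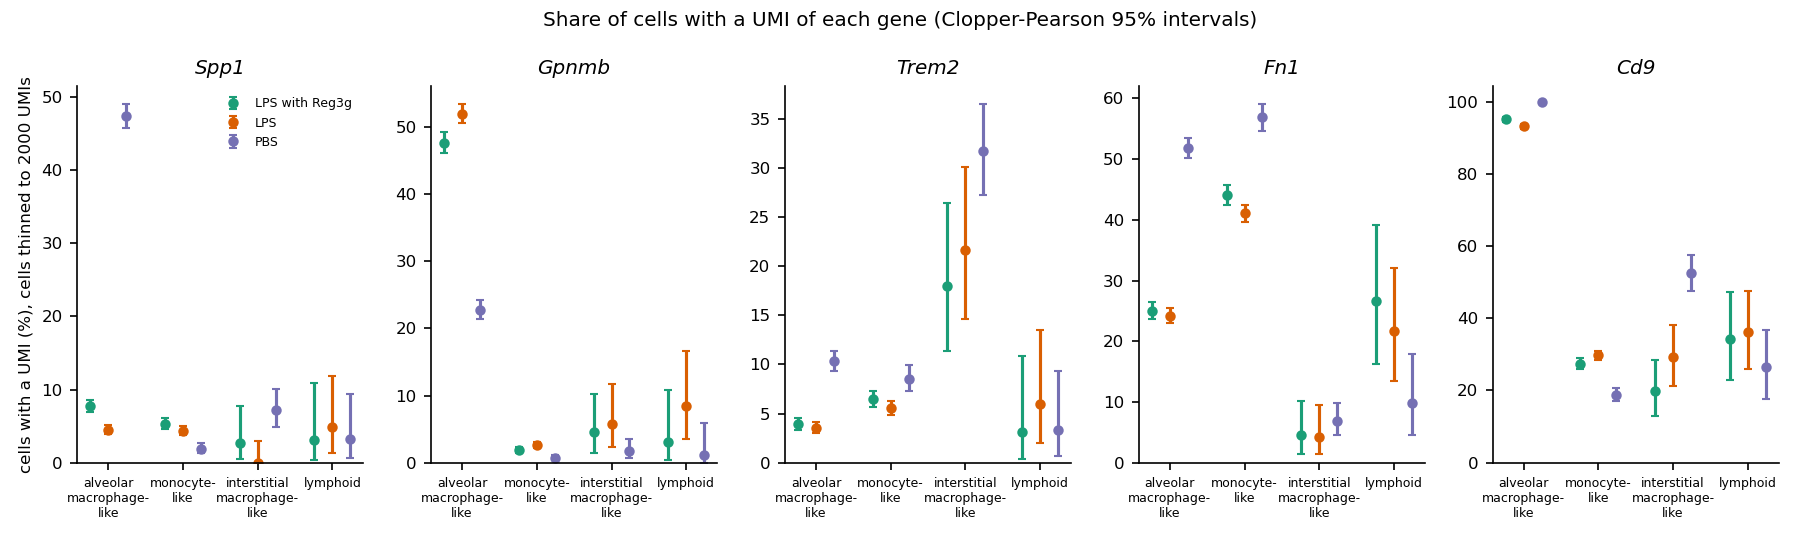
Share of cells with a UMI of each gene (%), after thinning every cell to 2000 UMIs, in alveolar-macrophage-like, monocyte-like, interstitial-macrophage-like and lymphoid cells of the 3 libraries, with exact binomial 95% intervals. Spp1 in alveolar-macrophage-like cells is at 7.74% with LPS and Reg3g and 4.53% with LPS, close to the lymphoid shares, and at 47.4% with PBS.

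Spp1 transcripts were unevenly spread over cells. Among thinned alveolar-macrophage-like cells, 13 cells with LPS and Reg3g, 4 cells with LPS and 155 cells with PBS held 5 or more Spp1 UMIs, and the variance of the counts was 2.94 times the mean with LPS and Reg3g, 2.15 times the mean with LPS and 2.93 times the mean with PBS. In monocyte-like cells the highest cell held 52 Spp1 UMIs with LPS and Reg3g, 29 Spp1 UMIs with LPS and 5 Spp1 UMIs with PBS, and the variance was 9.57 times the mean with LPS and Reg3g, 5.61 times the mean with LPS and 1.60 times the mean with PBS. Cells with 5 or more numbered 15 with LPS and Reg3g, 14 with LPS and 1 with PBS in this class, so a small number of monocyte-like cells held many Spp1 UMIs after LPS, with or without Reg3g. Trem2 in alveolar-macrophage-like cells stayed close to Poisson counts, with a variance between 1.06 and 1.12 times the mean.

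Within the alveolar-macrophage-like class, levels differed by cluster. The PBS-rich cluster 2 (leading genes Fabp1, Krt19, Cpne5, Siglecf and Patj) had the highest Cd9 of all clusters in each library, at 3321 CPM with LPS and Reg3g, 3504 CPM with LPS and 4902 CPM with PBS. Its Spp1 level was 141 CPM with LPS and Reg3g, 130 CPM with LPS and 554 CPM with PBS, and in each library another cluster had more: cluster 12 with LPS and Reg3g (195 CPM) and with PBS (750 CPM), and the monocyte-like cluster 17 with LPS (137 CPM), whose interval overlapped that of cluster 2. In the LPS library, Spp1 had 130 CPM in cluster 2, 123 CPM in the cycling cluster 12 (leading genes Cenpf, Hmmr, Aspm, Pbk and Esco2), 48.2 CPM in cluster 16, 22.2 CPM in cluster 18 and 26.1 CPM in cluster 19. Trem2 had 80.7, 42.2, 26.7, 18.2 and 11.9 CPM in these clusters of that library. Gpnmb was lowest in cluster 2 and highest in cluster 19 there, with 219, 369, 355, 425 and 478 CPM. Cluster 19 (leading genes Fstl1, Hamp, Edn1, Cyp26b1 and Inhba) had the highest Gpnmb of all clusters in the LPS library and in the library with LPS and Reg3g (426 CPM). It held no PBS cells, and cluster 12 was highest with PBS (191 CPM). Fn1 had 295, 206, 290, 162 and 122 CPM, and Cd9 3504, 1890, 2181, 1794 and 1432 CPM, over the clusters of the LPS library in that order.

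Only clusters 2 and 12 of this class held at least 50 cells in each library, so only there could LPS be set against PBS within a cluster. Cluster 2 held 112 cells with LPS and Reg3g, 127 cells with LPS and 3387 cells with PBS, and cluster 12 95 cells with LPS and Reg3g, 90 cells with LPS and 205 cells with PBS. Spp1 in cluster 2 had 130 CPM with LPS and 554 CPM with PBS, a log2 ratio of -2.10 (-2.48 to -1.73), and in cluster 12 it had 123 CPM with LPS and 750 CPM with PBS, a ratio of -2.60. Gpnmb was higher with LPS in both, with ratios of 0.50 (0.20 to 0.78) in cluster 2 and 0.95 in cluster 12. Trem2 in cluster 2 had 80.7 CPM with LPS and 56.4 CPM with PBS, a ratio of 0.52 (0.01 to 0.98), opposite in sign to the class as a whole, while its ratio was -0.70 (-1.36 to -0.10) in cluster 12. Fn1 was lower with LPS in both, at -0.77 and -1.02, and so was Cd9, at -0.48 and -1.13. In both clusters each of the 5 ratios was smaller in size than that of the whole class.

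The Spp1 ratio of LPS with Reg3g against LPS also differed by cluster. In cluster 16 (leading genes Ereg, Tnf, Cxcl1 and Egr2), Spp1 had 113 CPM with LPS and Reg3g and 48.2 CPM with LPS, a log2 ratio of 1.23 (1.02 to 1.44). In cluster 18 (leading genes Ear6, Car4, Serf1, Ccl9 and Cfb) it had 41.8 CPM with LPS and Reg3g and 22.2 CPM with LPS, a ratio of 0.91 (0.68 to 1.15), and in cluster 19 it had 31.1 CPM with LPS and Reg3g and 26.1 CPM with LPS, a ratio of 0.25 (0.03 to 0.47). The ratio was 0.66 (0.26 to 1.08) in cluster 12 and 0.12 (-0.38 to 0.63) in cluster 2. The levels of clusters 18 and 19 lay within or below the lymphoid intervals of their libraries. In cluster 16 the level with LPS lay within the lymphoid interval and the level with LPS and Reg3g above it. Of the class, cluster 16 made up 27.8% with LPS and Reg3g and 19.1% with LPS.

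Monocyte-like clusters were as uneven. In cluster 9 (leading genes Tmem37, Vcan, Spon1, Ly6a2 and Ly6c2) Spp1 had 47.6 CPM with LPS and Reg3g and 18.2 CPM with LPS, a log2 ratio of 1.39 (1.10 to 1.68), at levels within or below the lymphoid intervals. In cluster 17, led by Arg1, Ccl12, Upp1, Ccl2 and Ccl7, it had 142 CPM with LPS and Reg3g and 137 CPM with LPS, a ratio of 0.05, and the ratios of clusters 7 and 11 were -0.14 and -0.18. The class levels of 58.6 CPM with LPS and Reg3g and 57.2 CPM with LPS thus hold clusters with unlike ratios, and the class ratio was 0.34 when cells were thinned to 2000 UMIs. Cluster 7 (leading genes Ceacam1, Ace, Pecam1 and Eno3) had 5.34 CPM with LPS and Reg3g and 5.86 CPM with LPS, among the 3 lowest clusters of both libraries. Cluster 17 held 890 cells with LPS and Reg3g, 1541 cells with LPS and 0 cells with PBS. Fn1 in cluster 9 had 750 CPM with LPS and Reg3g and 500 CPM with LPS, a ratio of 0.58 (0.52 to 0.64), and Trem2 in cluster 17 had 23.1 CPM with LPS and Reg3g and 13.2 CPM with LPS, a ratio of 0.81 (0.39 to 1.24).

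With PBS, the 2 main monocyte-like clusters had opposite levels of Fn1 and Cd9. Cluster 5, led by Cd177, Serpinb10, Arhgef37 and AI839979, had 1125 CPM of Fn1 and 87.6 CPM of Cd9. Cluster 3, led by Tmem26, S1pr5, Scnn1a, Tgfbr3 and Ikzf3, had 43.1 CPM of Fn1 and 479 CPM of Cd9. In the PBS library cluster 5 had the highest Fn1 and the lowest Cd9 of any cluster. Fn1 was highest in cluster 9 with LPS and Reg3g (750 CPM) and in cluster 11 with LPS (634 CPM), and Cd9 was lowest in cluster 9 in both, at 85.1 CPM with LPS and Reg3g and 117 CPM with LPS. In single PBS monocyte-like cells, Cd9 was seen in 9.77% of cells with a Fn1 UMI and in 30.6% of those without. Trem2 was highest in each library in cluster 0 (leading genes Cxcl13, Ccl8, Vcam1, Cd163 and Col14a1), which is the whole interstitial-macrophage-like class.

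**Figure D4:**
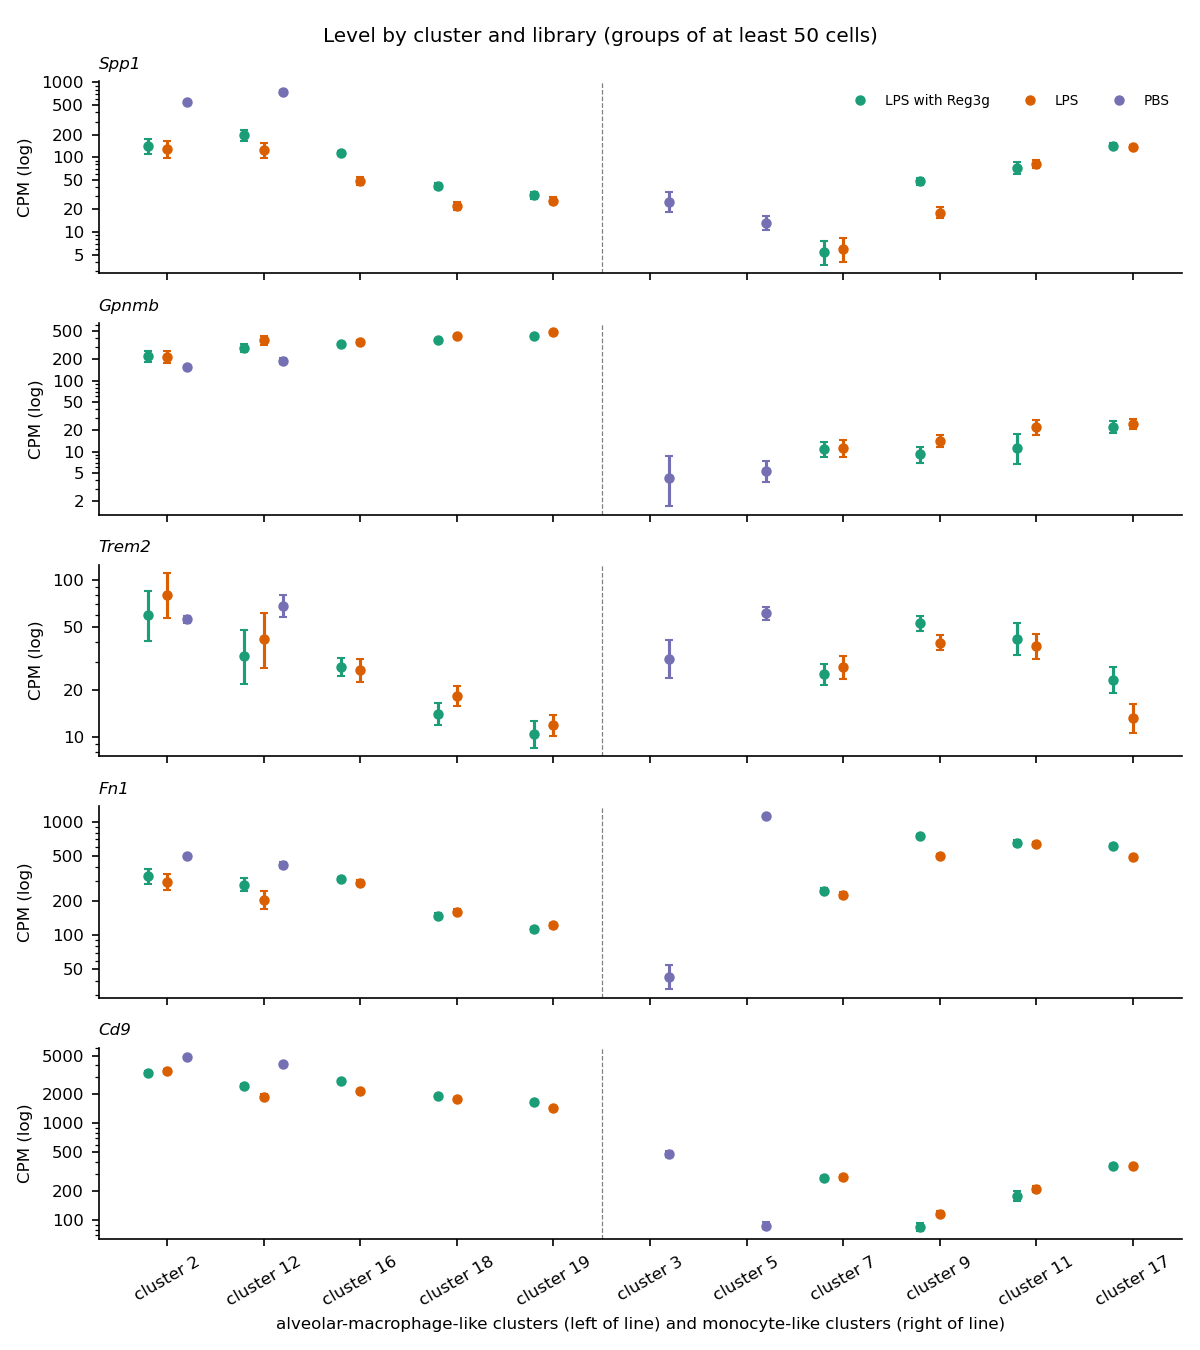
Level of each gene (CPM, log scale) in the alveolar-macrophage-like clusters (left of the dashed line) and monocyte-like clusters (right) for each library with at least 50 cells in the cluster, with exact Poisson 95% intervals. With LPS, Spp1 is at 130 CPM in cluster 2 and 26.1 CPM in cluster 19, while Gpnmb is at 219 and 478 CPM.

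The 5 genes were seldom seen in the same cell. Among thinned alveolar-macrophage-like cells, all 5 were seen in 0.180% (7 cells) with LPS and Reg3g, 0.0215% (1 cell) with LPS and 0.702% (25 cells) with PBS. The commonest count was 2 genes, in 48.1% with LPS and Reg3g, 49.0% with LPS and 39.9% with PBS, and 3 genes were seen in 13.8% with LPS and Reg3g, 13.1% with LPS and 32.9% with PBS. In the monocyte-like class all 5 were seen in 0 of 3552 cells with LPS and Reg3g, 0 of 4639 with LPS and 0 of 1836 with PBS, which allows shares of up to 0.0845% with LPS and Reg3g, 0.0647% with LPS and 0.163% with PBS. In that class 36.5% with LPS and Reg3g, 37.4% with LPS and 26.8% with PBS of cells showed none of the 5. Thinned cells miss transcripts that are present, so these shares do not count cells that express the genes. The 5 genes did not all peak in 1 cluster of any library. With PBS, for example, Spp1 and Gpnmb were highest in cluster 12, Cd9 in cluster 2, Trem2 in cluster 0 and Fn1 in cluster 5.

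Pairs of genes differed in how they went together within alveolar-macrophage-like cells. With LPS and Reg3g, Trem2 was seen in 9.63% (6.55 to 13.5) of cells with a Spp1 UMI and 3.46% of those without. These shares were 9.48% (5.89 to 14.3) and 3.28% with LPS, and 12.5% (11.0 to 14.2) and 8.33% (7.12 to 9.67) with PBS. Trem2 was thus seen more often in cells with Spp1 in each library. Fn1 too was seen more often beside Spp1, in 39.2% of cells with and 23.9% without a Spp1 UMI with LPS and Reg3g, 34.6% and 23.7% with LPS, and 55.2% and 48.7% with PBS. Gpnmb and Fn1 did the reverse. Fn1 was seen in 22.5% of cells with a Gpnmb UMI and 27.4% of those without with LPS and Reg3g, 21.9% and 26.7% with LPS, and 43.9% and 54.1% with PBS. Gpnmb was seen in 44.5% of cells with and 47.9% without a Spp1 UMI with LPS and Reg3g, 50.7% and 52.0% with LPS, and 23.2% and 22.4% with PBS, close to each other in every library. In monocyte-like cells Fn1 was seen in 61.1% of cells with and 43.0% without a Spp1 UMI with LPS and Reg3g, in 55.9% and 40.4% with LPS, and in 42.9% (26.3 to 60.6) and 57.1% with PBS. Cells of 1 library are not replicates, and the clusters named above differ in these genes.

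**Figure D5:**
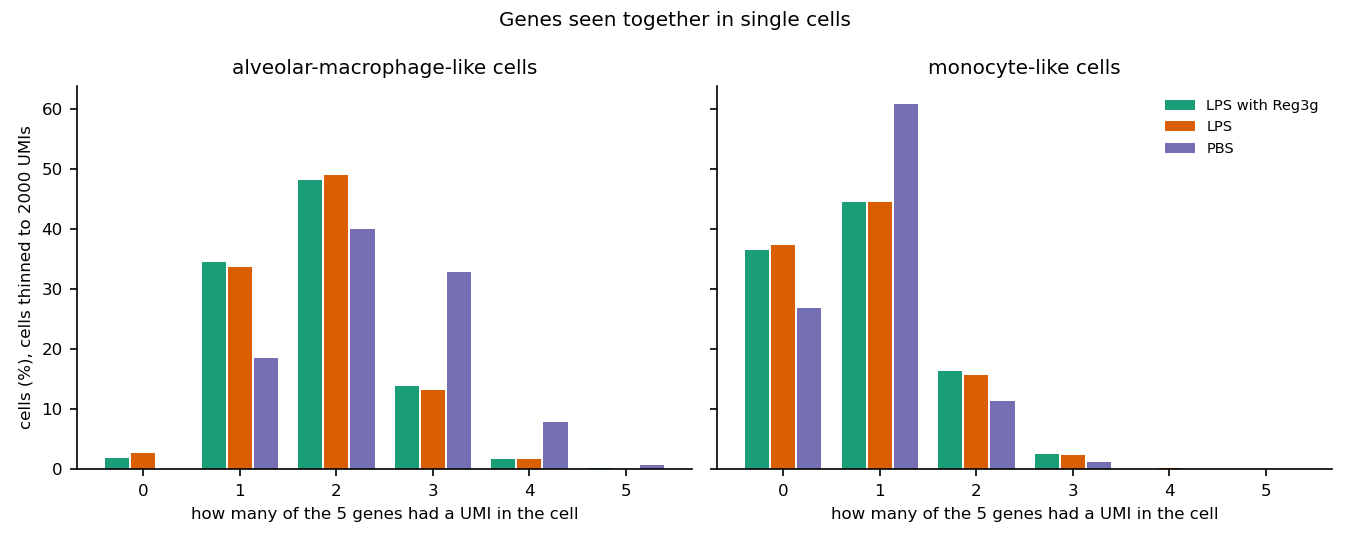
Share of cells (%, thinned to 2000 UMIs) in which 0 to 5 of the 5 genes had a UMI, in alveolar-macrophage-like and monocyte-like cells of the 3 libraries. In alveolar-macrophage-like cells, 3 genes were seen in 13.8% with LPS and Reg3g, 13.1% with LPS and 32.9% with PBS, and all 5 in 0.180%, 0.0215% and 0.702% of cells.

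Genes of the same pathways were counted in alveolar-macrophage-like cells for LPS against PBS, beside the all-gene shares given for that comparison. Of 9 measured osteopontin and fibronectin receptors, 1 was higher and 3 lower by 2-fold, with a median log2 ratio of -0.21. Cd44, the hyaluronan receptor that also binds osteopontin, had 567 CPM with LPS and 1621 CPM with PBS. Itgam, an integrin chain, had 67.0 CPM with LPS and 2.57 CPM with PBS, and lymphoid cells had 152 CPM of it with LPS. Of 10 genes of Trem2 signalling and shedding, none passed 2-fold, with a median of -0.52. Tyrobp, the Trem2 adaptor, had 1118 CPM with LPS and 2168 CPM with PBS, and Adam10, a protease that sheds Trem2, had 74.0 CPM with LPS and 145 CPM with PBS. Lymphoid cells had 1111 CPM of Tyrobp and 68.5 CPM of Adam10 with LPS, close to these levels. Whether lymphoid cells made the Itgam, Tyrobp and Adam10 transcripts themselves or held them as free RNA was not tested.

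Of 20 measured genes of the lipid-associated and scar macrophage list, 6 were higher and 2 lower by 2-fold, with a median of 0.46. Mmp14, a membrane metalloproteinase, had 113 CPM with LPS and 0.49 CPM with PBS. Cd63, a lysosomal tetraspanin, had 764 CPM with LPS and 151 CPM with PBS, and Timp2, a metalloproteinase inhibitor, had 16.1 CPM with LPS and 52.8 CPM with PBS. In the LPS library lymphoid cells had 81.5 CPM of Mmp14, 141 CPM of Cd63 and 55.6 CPM of Timp2, which is more than the alveolar-macrophage-like level for Timp2. Of 12 genes that are MiT family factors, known to drive Gpnmb, or lysosomal genes listed with them, 0 were higher and 1 lower, with a median of -0.07. Mitf, one of these factors, had 99.0 CPM with LPS and 66.9 CPM with PBS, a log2 ratio of 0.57. Of 6 measured genes of fibronectin matrix handling, 1 was higher and 1 lower, with a median of -0.14, which was 0.34 over the 9 genes reaching 5 CPM. Sdc4, a heparan sulphate proteoglycan that binds fibronectin, had 700 CPM with LPS and 1.30 CPM with PBS, and Mmp19, a matrix metalloproteinase, had 40.3 CPM with LPS and 95.8 CPM with PBS. Of 11 tetraspanins and Cd9 partners, 3 were higher and 2 lower, with a median of 0.17, beside -1.49 for Cd9 itself. Cd81, a tetraspanin that associates with Cd9, had 92.0 CPM with LPS and 195 CPM with PBS, and Cd82, another tetraspanin, had 85.5 CPM with LPS and 34.9 CPM with PBS. Lymphoid cells of the LPS library had 37.0 CPM of Mitf, 335 CPM of Sdc4, 14.8 CPM of Mmp19, 104 CPM of Cd81 and 53.7 CPM of Cd82, and so more Cd81 than alveolar-macrophage-like cells. For these genes too, it was not tested whether lymphoid cells made the transcripts themselves.

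For LPS with Reg3g against LPS, no gene of the 6 lists differed 2-fold in alveolar-macrophage-like or monocyte-like cells, and the list medians lay between -0.06 and 0.13 in the first class and between -0.13 and 0.22 in the second. Few genes of any kind did. Over all genes, 0.0280% were higher and 0.0839% lower in the first class, and 0.0949% and 0.0542% in the second. The all-gene median log2 ratio was 0.04 in each. In alveolar-macrophage-like cells Cd44 had 719 CPM with LPS and Reg3g and 567 CPM with LPS, a log2 ratio of 0.34, Sdc4 had 494 CPM with LPS and Reg3g and 700 CPM with LPS, and Mmp19 had 59.4 CPM with LPS and Reg3g and 40.3 CPM with LPS. In monocyte-like cells Lpl, the lipoprotein lipase, had 171 CPM with LPS and Reg3g and 298 CPM with LPS, and Thbs1, a matrix glycoprotein, had 299 CPM with LPS and Reg3g and 435 CPM with LPS. Lpl is also one of the alveolar macrophage markers. Lymphoid cells had 242 CPM of Lpl with LPS and Reg3g, above the monocyte-like level. The part of free RNA in the Lpl difference was not tested.

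In monocyte-like cells, 9 of 19 measured lipid-associated genes were higher and 2 lower by 2-fold with LPS than with PBS, with a median of 0.99. Over all genes 11.0% were higher and 8.51% lower, with a median of 0.03. Arg1, arginase, had 146 CPM with LPS and 1 UMI with PBS (log2 ratio 10.3, interval 7.80 to 15.6), and Fabp5, a fatty-acid carrier, had 1044 CPM with LPS and 116 CPM with PBS. Of 10 fibronectin matrix genes, 4 were higher and 1 lower, with a median of 0.72, and Ecm1, a matrix protein, had 122 CPM with LPS and 13.7 CPM with PBS. Apoe, an apolipoprotein that binds Trem2, had 952 CPM with LPS and 2725 CPM with PBS, and was the 1 of 10 Trem2 signalling genes past 2-fold. Of 9 receptors 1 was higher and 0 lower (median -0.07), of 11 MiT family and lysosomal genes 2 were higher and 0 lower (0.08), and of 9 tetraspanins 3 were higher and 1 lower (0.26). The last counts depended on the minimum level. Among genes reaching 50 CPM, 0 of 5 MiT family and lysosomal genes were higher (median -0.04), and of 4 tetraspanins 0 were higher and 1 lower (median -0.06), and among those reaching 5 CPM the tetraspanin median was 0.70. Lymphoid cells of the LPS library had 7.41 CPM of Arg1, 630 CPM of Fabp5, 14.8 CPM of Ecm1 and 396 CPM of Apoe.

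Over 25 class-by-library groups of at least 50 cells, which share libraries, the genes most alike in log2(CPM + 1) were picked for each member from 5954 genes, as a description. Gpnmb was most like Slc7a2 (Pearson r = 0.96), F7 (0.94) and Car4 (0.94). Cd9 was most like Mcoln3, Perp and Krt79 (0.88 each), and Trem2 like Selenop (0.87), Ccdc152 (0.86) and Srgap2 (0.86). Fn1 was most like B4galt5 (0.87), Camkk2 (0.86) and Svil (0.85), and Spp1 like Plk3 (0.80), Sh3tc1 (0.79) and Septin9 (0.79). No member was among the 3 most alike of another. Between members r was highest for Gpnmb with Cd9 (0.69) and Spp1 with Cd9 (0.66), and lowest for Spp1 with Trem2 (0.11).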

How the data were processed

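From sorted lung cells, 3 libraries, 1 for each of LPS with Reg3g, LPS and PBS, were made with 10x Genomics GEM-X 3′ chemistry, per the labels' protocols. The authors deposited gene-by-barcode matrices of UMI counts, made with Cell Ranger 9.0.1 on mm10, per the submitters' processing notes, which also list bcl2fastq 5.0.1 and Seurat 4.4.0. The counts are raw whole numbers. With 1 library per group no test between groups was possible.

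Barcodes passed with 500 or more genes, 1000 or more UMIs and no more than 15% of UMIs from mitochondrial genes. Doublets were called with Scrublet at 0.4% per 1000 barcodes (417, 902 and 287 cells removed with LPS and Reg3g, LPS and PBS). The cells were clustered with scanpy 1.11.5 on 2000 variable genes without the 5 genes, 30 components, 15 neighbours and Leiden resolution 1. Of 21 clusters, 2 stayed unnamed. A class is a set of clusters named from 20 marker lists by a scoring rule set after the clusters were seen, so names are rebuilt and not the authors'. Each gene's UMIs were added up over the cells of a class in a library and scaled to CPM. Ratios of 2-fold or more were counted over genes that reach 10 CPM in either library. Intervals are exact Poisson, Clopper-Pearson or conditional binomial at 95% and cover counting error only. Cells were thinned to 2000 UMIs with a fixed seed. The interval code was tested on simulated data.

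The named genes are the 5 members, up to 4 genes per related list and contrast with the largest ratio and at least 50 CPM, the 3 most alike genes and the clusters highest or lowest per member with their 5 leading genes, of which some are not reported here. Clusters are ranked within a library. The members, 6 lists and these rules were chosen with earlier results of these data known. Of 55357 feature IDs, 52081 were found in GENCODE M21, from which positions were taken. Promoters are RefSeq's (GRCm38.p6). Strand use in counting: not given in the sources used here. The overlapping genes of Spp1, Fn1 and Cd9 held at most 0.859% of the UMIs of the gene they overlap. Alternatives in cell filter, doublets, clustering, scaling and thinning are in the closing section, of which leaving out the cycling cluster and adding unnamed clusters were chosen after seeing the data.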

Additional observations from a re-analysis of the deposited data

Results flagged for a closer look

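Spp1 had opposite signs in different cell classes for LPS against PBS. The log2 ratio was -4.15 in alveolar-macrophage-like cells, 1.88 in monocyte-like cells and -4.24 in interstitial-macrophage-like cells, the last from 3 UMIs with LPS and 193 with PBS. With 1 library per group the difference between the classes was not tested. Lymphoid cells had 44.5 CPM of Spp1 with LPS and 20.8 CPM with PBS, and the LPS monocyte-like level was 57.2 CPM. Of the 1301 Spp1 UMIs of LPS monocyte-like cells, 873 lay in cluster 17, which held 0 PBS cells.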

How the results depend on the processing

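No paired analysis was possible because each group is 1 library, and for the same reason no library could be left out. In alveolar-macrophage-like cells the log2 ratios for LPS against PBS ranged from -4.20 to -3.82 for Spp1, 1.44 to 1.78 for Gpnmb, -1.67 to -1.33 for Trem2, -1.59 to -1.24 for Fn1 and -1.51 to -1.17 for Cd9 over the alternatives within the class. The count of genes at least 2-fold higher with LPS and Reg3g than with LPS there was 0, and 1 with no doublet removal or with cells thinned to 2000 UMIs. The Spp1 ratio in that comparison was 0.90 to 1.01. The Trem2 ratio, -0.09 to 0.09, changed sign. So did the monocyte-like Spp1 ratio of LPS with Reg3g against LPS, which lay between -0.03 (median-of-ratios scaling) and 0.34 (thinned cells), with 0.31 when cells were weighted equally. In monocyte-like cells the count at least 2-fold lower with LPS than with PBS was 1, and 0 at Leiden resolution 2, with the members among the variable genes and under median-of-ratios or trimmed mean scaling, 2 with no doublet removal and 3 with all cells of a library pooled. Pooling all cells also left 1 gene higher in place of 2, and gave Spp1 a ratio of -3.11 where monocyte-like cells had 1.88, by construction, since most PBS Spp1 UMIs lie in alveolar-macrophage-like cells. Depth limits interstitial-macrophage-like Spp1 (3 UMIs with LPS) and every share near the lymphoid one.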

Other observations

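Dendritic-cell-like classes carried some of the genes too. Fn1 in type 2 dendritic-cell-like cells had 98.4 CPM with LPS and Reg3g, 89.2 CPM with LPS and 623 CPM with PBS, and was seen in 7.35% of thinned cells with LPS and Reg3g, 9.88% with LPS and 17.3% with PBS. This class held 6.97% of the PBS library's Fn1 UMIs. Spp1 in type 1 dendritic-cell-like cells had 70.6 CPM with LPS and Reg3g, 47.6 CPM with LPS and 93.8 CPM with PBS.

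Neutrophil-like cells, although Ly6G- cells were sorted, numbered 170 with LPS and Reg3g, 193 with LPS and 11 with PBS. They had 111 CPM of Gpnmb with LPS and Reg3g and 74.4 CPM with LPS. Of the unnamed clusters, cluster 8 had 109 CPM of Spp1 with LPS and Reg3g, 54.5 CPM with LPS and 265 CPM with PBS.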
